A study of Homo sapiens with 12 samples.

Results

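Long noncoding RNAs (lncRNAs) that are abundant in the nucleus or act as regulators were examined in newly made RNA from 12 libraries of U2OS MycER cells. The 7 genes, MALAT1, NEAT1, NORAD, PVT1, KCNQ1OT1, TUG1 and CYTOR, were chosen by name, with earlier results of these data known. All 7 were found by Entrez identifier among the 23434 genes of the count table. U2OS is a human osteosarcoma line, and MycER is the transcription factor Myc fused to the hormone-binding domain of the estrogen receptor, which 4-hydroxytamoxifen (OHT) activates. The 4 groups had 3 libraries each: shNT, cells with a control shRNA and no OHT; shNT_OHT, the same cells with 300 nM OHT for 40 h; shCDK12, cells with an shRNA against CDK12 and no OHT; and shCDK12_OHT, cells with that shRNA and OHT. All groups were infected with virus carrying the shRNA, and received 1 µg/mL doxycycline to switch it on and 100 ng/mL nocodazole for 8 h, were shaken off in mitosis and collected 12 h after release. All carried MycER and were given 0.5 mM 5-ethynyl-uridine (EU) for 2 h, so that RNA made in that window could be purified (EU-seq). From each sample 40 µg of human RNA was mixed with 10 µg of mouse RNA before purification. Whether the replicates were separate cultures and how many shRNAs against CDK12 were used is not given in the sources used here, so the p-values measure the spread between these libraries, which may be technical.

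MALAT1 and NEAT1 lie next to each other on chromosome 11 and stay in the nucleus, MALAT1 in nuclear speckles, which hold splicing factors, and NEAT1 as the scaffold of paraspeckles. NORAD, on chromosome 20, is a cytoplasmic RNA that binds the Pumilio proteins, repressors of mRNA, through repeated short elements. KCNQ1OT1 is an unspliced antisense RNA inside the KCNQ1 gene on chromosome 11 that is made from the paternal allele and silences genes of an imprinted domain. TUG1, on chromosome 22, was found as a gene induced by taurine and has been linked to gene repression, and RefSeq now lists it as protein coding. PVT1 is the neighbour of MYC and hosts several microRNAs, and CYTOR on chromosome 2 is a cytoplasmic lncRNA with a near copy, MIR4435-2HG, on the same chromosome. OHT against shNT asks what activation of Myc does to these RNAs, and shCDK12 asks what silencing CDK12, a kinase of RNA polymerase II that sustains elongation, does with and without it. No group had OHT without MycER, so an effect of OHT itself cannot be told apart from that of Myc.

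Myc with its partner MAX binds the E-box CACGTG, a palindrome, so the window from 250 bases before to 50 bases after a start in RefSeq (GRCh38.p14) was searched for it. The windows of MALAT1, NORAD, TUG1 and CYTOR were read, and 2548 of the 35116 windows in the table (7.26%) held the motif. NEAT1, KCNQ1OT1 and PVT1 were not searched. NORAD (chr20:36050911-36051210, minus strand) held 1, starting at base -138 from the start of transcription. TUG1 (chr22:30969015-30969314, plus strand) held 1 at base -77. MALAT1 had a window at each of 2 starts (chr11:65497488-65497787 and chr11:65498795-65499094, plus strand), and these letters are in neither. The CYTOR window, printed further on, does not hold them either. The windows of MALAT1, NORAD and TUG1 are shown because these genes were called in shCDK12 against shNT, with the E-box in capitals, and a match is a description and not a binding site.
NORAD: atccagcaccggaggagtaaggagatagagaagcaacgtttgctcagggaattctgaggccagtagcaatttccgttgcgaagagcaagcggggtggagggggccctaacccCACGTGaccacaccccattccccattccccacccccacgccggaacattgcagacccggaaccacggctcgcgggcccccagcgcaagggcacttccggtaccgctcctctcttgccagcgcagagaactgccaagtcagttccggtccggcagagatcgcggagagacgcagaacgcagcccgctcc
TUG1: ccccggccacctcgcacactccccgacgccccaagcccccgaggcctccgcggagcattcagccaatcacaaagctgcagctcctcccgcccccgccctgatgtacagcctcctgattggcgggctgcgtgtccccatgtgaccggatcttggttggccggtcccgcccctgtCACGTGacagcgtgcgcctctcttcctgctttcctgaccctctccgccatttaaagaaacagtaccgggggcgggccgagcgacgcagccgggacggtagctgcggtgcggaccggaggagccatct
MALAT1, upstream start: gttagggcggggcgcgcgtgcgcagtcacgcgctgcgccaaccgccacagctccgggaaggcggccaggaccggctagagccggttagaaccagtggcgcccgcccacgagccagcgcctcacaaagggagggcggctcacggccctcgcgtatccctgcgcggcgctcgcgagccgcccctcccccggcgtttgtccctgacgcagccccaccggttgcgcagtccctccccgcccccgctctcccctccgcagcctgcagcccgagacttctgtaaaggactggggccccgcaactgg
MALAT1, downstream start: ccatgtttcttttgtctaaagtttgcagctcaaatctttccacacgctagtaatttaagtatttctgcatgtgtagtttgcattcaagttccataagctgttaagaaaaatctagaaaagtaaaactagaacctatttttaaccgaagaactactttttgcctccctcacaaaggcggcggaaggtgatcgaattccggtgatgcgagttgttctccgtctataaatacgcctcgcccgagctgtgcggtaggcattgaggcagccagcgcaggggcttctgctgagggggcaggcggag

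The gene targeted by the shRNA gives a check of the labels. CDK12 stood at 304 ± 17.4 CPM (counts scaled to the library size after TMM, edgeR's trimmed-mean correction, mean ± SD, n = 3) in shNT and at 289 ± 10.9 in the libraries labelled shCDK12, a log2 difference of -0.08 (SE 0.0838, edgeR adjusted p = 0.447, from its quasi-likelihood test with p adjusted over all genes tested and called under 0.05). It stood at 397 ± 38.7 CPM in shNT_OHT and at 214 ± 5.08 in the libraries labelled shCDK12_OHT, a log2 difference of -0.88 (SE 0.106, edgeR adjusted p = 0.00011). It was lower in shCDK12_OHT than in shCDK12 as well, by -0.44 on the log2 scale (SE 0.0737, edgeR adjusted p = 9.55e-05). CDK12 was thus not lower in the libraries labelled shCDK12 without OHT, and every direction drawn from them below is that of the label. Of the 2 groups labelled with the CDK12 shRNA, it was lower in the one labelled OHT, and whether the labels shCDK12 and shCDK12_OHT were exchanged was not tested. An exchange would turn the sign of every value of shCDK12_OHT against shCDK12. In shCDK12 against shNT and in shCDK12_OHT against shNT_OHT the groups would then differ in OHT as well as in the shRNA. MYC, whose counts do not separate the endogenous gene from MycER, was at 2090 ± 112 CPM in shNT, 1970 ± 248 in shNT_OHT, 1120 ± 89.5 in shCDK12 and 2060 ± 53.7 in shCDK12_OHT. Libraries held between 1251695 and 10447836 counts, and shNT_OHT was the shallowest group. Of 7 markers of the line at least 5 were counted in every library, while COL1A2 reached 1.16 CPM at most and TWIST1 0.21. Their summed level was 868 to 966 CPM in shNT, 708 to 739 in shNT_OHT, 411 to 428 in shCDK12 and 499 to 524 in shCDK12_OHT. RUNX2 stood at 218 ± 26.1 CPM in shNT, 136 ± 18.4 in shNT_OHT, 61.1 ± 3.33 in shCDK12 and 109 ± 0.777 in shCDK12_OHT. The 4 markers of epithelium, blood, T cells and liver summed to 0 to 5.27 CPM in shNT, 0.58 to 2.82 in shNT_OHT, 7.77 to 10.2 in shCDK12 and 2.54 to 3.53 in shCDK12_OHT, of which EPCAM of epithelium held 0.82 ± 0.884 CPM in shNT and 8.03 ± 1.45 in shCDK12. The libraries labelled shCDK12 thus held the lowest level of line markers and the highest of EPCAM, and the part of this in the differences of the lncRNAs was not tested.

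The 7 lncRNAs together took between 0.605 and 0.655% of the counts in shNT, 0.389 to 0.470% in shNT_OHT, 0.404 to 0.438% in shCDK12 and 0.541 to 0.576% in shCDK12_OHT. MALAT1 ranked 9 of 23434 rows by mean CPM, NORAD 46, NEAT1 91, TUG1 296, PVT1 1852, KCNQ1OT1 2384 and CYTOR 4527, ranks that are not per length. Among the 1928 rows that RefSeq calls lncRNA, MALAT1 was at rank 1, NORAD at 2 and NEAT1 at 4. Levels per length were compared for the 4 unspliced genes only, with RefSeq lengths, since the annotation used for counting is not named. MALAT1 led in shNT with 382 ± 20 CPM per kb, followed by NORAD with 198 ± 9.36, NEAT1 with 44.8 ± 0.226 and KCNQ1OT1 with 1.05 ± 0.119. In shNT_OHT NORAD stood at 228 ± 34.6 and MALAT1 at 203 ± 22.3 CPM per kb, within the spread of each other. The order in shCDK12 was NORAD at 243 ± 23.0 and then MALAT1 at 188 ± 7.68 CPM per kb, and in shCDK12_OHT MALAT1 was again above NORAD, at 326 ± 21.9 against 221 ± 6.96. NEAT1 also has a short isoform, which lowers its level over the full length.

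**Figure D1:**
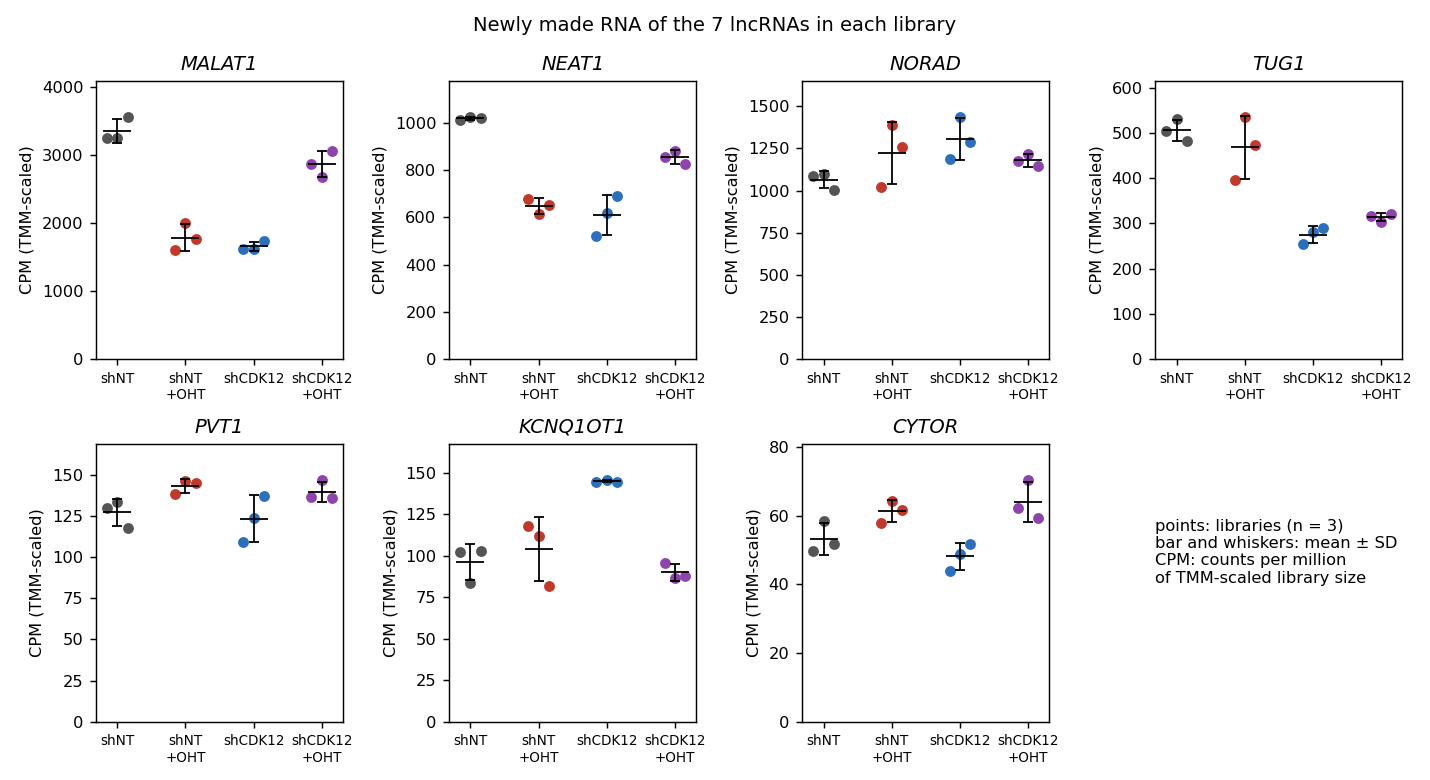
Newly made RNA of the 7 lncRNAs, in CPM of TMM-scaled library size (y axis, from 0), in the 4 groups (x axis). Points are libraries and the bar with whiskers is the mean ± SD (n = 3). MALAT1 and NEAT1 are high in shNT and shCDK12_OHT and low in shNT_OHT and shCDK12, KCNQ1OT1 is high in shCDK12, and TUG1 is low in both groups labelled with the CDK12 shRNA.

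MALAT1, the speckle RNA, held 3251, 3241 and 3550 CPM in the shNT libraries and 1603, 1993 and 1757 CPM in those of shNT_OHT. Its libraries labelled shCDK12 held 1612, 1619 and 1732 CPM and those labelled shCDK12_OHT 2869, 2669 and 3052 CPM. The libraries of shNT were highest, those of shCDK12_OHT next, and those of shNT_OHT and shCDK12 overlapped each other but no other group. With OHT in shNT cells MALAT1 fell to 0.531 times its level (log2 -0.91, SE 0.101, edgeR adjusted p = 5.21e-05). It also fell in shCDK12 against shNT, to 0.493 times (log2 -1.02, SE 0.0712, edgeR adjusted p = 6.05e-12). In shCDK12_OHT it rose 1.63-fold over shNT_OHT (log2 0.70, SE 0.102, edgeR adjusted p = 0.000339). Against shCDK12 it rose 1.73-fold (log2 0.79, SE 0.0736, edgeR adjusted p = 1.29e-07). In bulk samples fewer cells that make an RNA and less of it per cell cannot be told apart.

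NEAT1, the paraspeckle scaffold, held 1013, 1023 and 1020 CPM in shNT and 679, 612 and 653 CPM in shNT_OHT. In the libraries labelled shCDK12 it held 522, 619 and 688 CPM and in those labelled shCDK12_OHT 855, 882 and 823 CPM. As with MALAT1, shNT_OHT and shCDK12 overlapped each other and lay below both other groups, which did not overlap. NEAT1 fell to 0.635 times its level with OHT in shNT cells (log2 -0.66, SE 0.0972, edgeR adjusted p = 0.000559) and to 0.597 times in shCDK12 against shNT (log2 -0.74, SE 0.0853, edgeR adjusted p = 4.8e-08). It rose 1.33-fold in shCDK12_OHT over shNT_OHT (log2 0.41, SE 0.0896, edgeR adjusted p = 0.00344). Over shCDK12 the rise was 1.4-fold (log2 0.48, SE 0.0872, edgeR adjusted p = 0.000179).

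The ratio of NEAT1 to MALAT1 counts is read within a library and does not depend on its scaling. It was 0.312, 0.316 and 0.287 in shNT, 0.423, 0.307 and 0.372 in shNT_OHT, 0.324, 0.382 and 0.397 in shCDK12 and 0.298, 0.330 and 0.270 in shCDK12_OHT. Only shCDK12 and shNT did not overlap, and the log2 difference of 0.27 between them had an exact two-sided permutation p of 0.1, the smallest that 3 against 3 libraries can give. For shNT_OHT against shNT the log2 difference was 0.26 (exact permutation p = 0.3), for shCDK12_OHT against shNT_OHT -0.29 (exact permutation p = 0.2) and for shCDK12_OHT against shCDK12 -0.30 (exact permutation p = 0.2). With 3 libraries a group this test cannot pass 0.05, so it does not show whether the ratio changed.

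**Figure D2:**
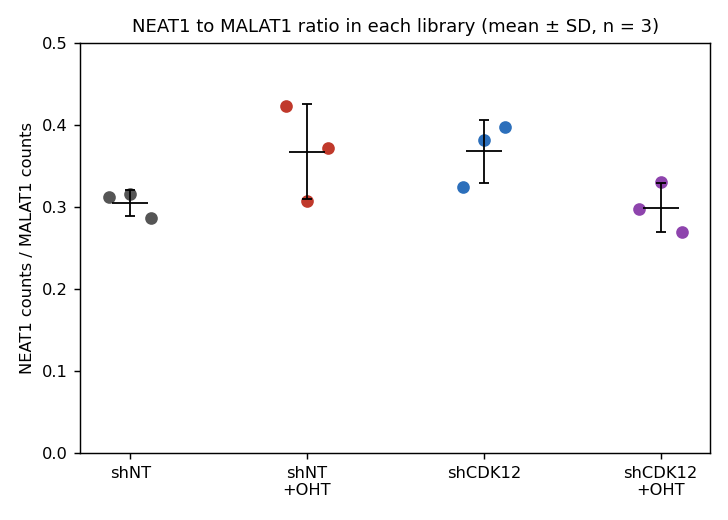
NEAT1 counts divided by MALAT1 counts (y axis, from 0) in each library of the 4 groups (x axis), with the mean ± SD (n = 3). The means lie between 0.299 in shCDK12_OHT and 0.368 in shCDK12.

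NORAD, the Pumilio-binding RNA, held 1086, 1098 and 1006 CPM in shNT, 1023, 1389 and 1258 CPM in shNT_OHT, 1190, 1435 and 1290 CPM in shCDK12 and 1176, 1219 and 1145 CPM in shCDK12_OHT. Its shNT libraries lay below those of shCDK12 and shCDK12_OHT, and all other pairs of groups overlapped. It rose 1.22-fold in shCDK12 against shNT (log2 0.29, SE 0.0763, edgeR adjusted p = 0.00187). With OHT in shNT cells the log2 difference of 0.20 (SE 0.112) did not pass the test (edgeR adjusted p = 0.243), and without shNT_OHT replicate 1 it was 0.32 and did (edgeR adjusted p = 0.00848). In shCDK12_OHT it was -0.03 from shNT_OHT (95% interval -0.251 to 0.189) and -0.15 from shCDK12 (-0.297 to 0.00512), neither past the test. The longest NORAD transcript of GENCODE v44, 5401 bases, held 15 copies of the Pumilio element TGTANATA on its own strand, or 2.78 per kb. Over all 252835 transcripts the density was 0.1 per kb and 12.4% held a copy, while NEAT1 held 6 copies, KCNQ1OT1 9, TUG1 2 and MALAT1, PVT1 and CYTOR 0. The first 3 sites of NORAD, at bases 819, 1198 and 1299, are shown because they are the repeated element by which it is known, with the element in capitals.
NORAD 819: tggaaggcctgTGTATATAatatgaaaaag
NORAD 1198: cctcactactgTGTATATAgttgacaatgc
NORAD 1299: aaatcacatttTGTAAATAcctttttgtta

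KCNQ1OT1, the antisense RNA of the imprinted domain, held 102.6, 83.7 and 102.7 CPM in shNT, 117.8, 112.2 and 82.1 CPM in shNT_OHT, 144.5, 145.8 and 144.7 CPM in shCDK12 and 95.9, 86.5 and 87.6 CPM in shCDK12_OHT. The libraries labelled shCDK12 stood above all 9 others, which overlapped between groups. It rose 1.51-fold in shCDK12 against shNT (log2 0.60, SE 0.105, edgeR adjusted p = 2.61e-05) and fell to 0.621 times in shCDK12_OHT against shCDK12 (log2 -0.69, SE 0.0836, edgeR adjusted p = 2.98e-06). With OHT in shNT cells it differed by log2 0.10 (SE 0.172, edgeR adjusted p = 0.728) and in shCDK12_OHT against shNT_OHT by -0.18 (SE 0.154, edgeR adjusted p = 0.36). KCNQ1, the gene on the other strand, had between 0 and 10 counts per library (at most 1.62 CPM). Whether strand was used in counting is not given in the sources used here.

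TUG1 held 504, 530 and 483 CPM in shNT and 396, 535 and 473 CPM in shNT_OHT, which overlapped. It held 254, 281 and 290 CPM in shCDK12 and 317, 304 and 320.2 CPM in shCDK12_OHT, with every library below those of both shNT groups. TUG1 fell to 0.543 times in shCDK12 against shNT (log2 -0.88, SE 0.0813, edgeR adjusted p = 1.13e-09) and to 0.681 times in shCDK12_OHT against shNT_OHT (log2 -0.55, SE 0.118, edgeR adjusted p = 0.00321). With OHT its log2 difference was -0.12 in shNT cells (SE 0.119, edgeR adjusted p = 0.523) and 0.19 in shCDK12 cells (SE 0.0758, edgeR adjusted p = 0.0502). In the latter the libraries did not overlap, which was so for 56.3% of the genes tested.

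PVT1, next to MYC, held 130, 133.7 and 117.8 CPM in shNT, 138.2, 146 and 145 CPM in shNT_OHT, 108.9, 124 and 137.1 CPM in shCDK12 and 136.4, 146.8 and 135.9 CPM in shCDK12_OHT. Its shNT_OHT libraries lay above those of shNT, and 35.9% of genes tested had groups that did not overlap there, in either direction. The log2 difference of PVT1 was 0.16 with OHT in shNT cells, -0.05 in shCDK12 against shNT, -0.01 in shCDK12_OHT against shNT_OHT and 0.18 in shCDK12_OHT against shCDK12, and none passed the test (edgeR adjusted p from 0.115 to 0.93). MYC counts fell in shCDK12 against shNT (log2 -0.90, SE 0.075, edgeR adjusted p = 1.8e-10) and rose in shCDK12_OHT against shCDK12 (log2 0.88, edgeR adjusted p = 4.98e-08), where PVT1 had -0.05 (95% interval -0.250 to 0.149) and 0.18 (-0.000949 to 0.357). Since these MYC counts do not separate the endogenous gene from MycER, they do not show whether the gene next to PVT1 changed.

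CYTOR, the least counted of the 7, held 49.7, 58.5 and 51.6 CPM in shNT, 58.0, 64.3 and 61.8 CPM in shNT_OHT, 43.8, 48.9 and 51.6 CPM in shCDK12 and 62.2, 70.4 and 59.3 CPM in shCDK12_OHT. The libraries of shCDK12_OHT lay above those of shCDK12 and of shNT, and those of shNT_OHT above those of shCDK12. CYTOR rose 1.33-fold in shCDK12_OHT against shCDK12 (log2 0.41, SE 0.107, edgeR adjusted p = 0.0038), a call that was lost with every library thinned to 1251695 counts (log2 0.14, edgeR adjusted p = 0.563). Its log2 differences of 0.19 with OHT in shNT cells, -0.15 in shCDK12 against shNT and 0.09 in shCDK12_OHT against shNT_OHT did not pass the test. The smallest count was 78, in shNT_OHT replicate 2, with a counting error of 11.3%. The CYTOR transcript marked canonical in GENCODE v44 has 1020 bases. Of these, 409 (40.1%) aligned to the canonical transcript of MIR4435-2HG, in stretches of 272 bases at 99.6% identity and 137 bases at 100%. The counts of the pair are therefore uncertain. The longest CYTOR transcript has 7512 bases and was not aligned, so the share for the counted gene is not known. MIR4435-2HG fell in shCDK12 against shNT (log2 -0.60, SE 0.12, edgeR adjusted p = 9.61e-05) and rose in shCDK12_OHT against shCDK12 (log2 0.62, SE 0.097, edgeR adjusted p = 4.24e-05). The windows at the starts of CYTOR (chr2:87455177-87455476, plus strand) and MIR4435-2HG (chr2:111495112-111495411, minus strand), RefSeq GRCh38.p14, share an unbroken identical run of 241 bases, shown in capitals as an example of how alike the 2 loci are. The run lies upstream of the CYTOR start and reaches into the MIR4435-2HG transcript.
CYTOR: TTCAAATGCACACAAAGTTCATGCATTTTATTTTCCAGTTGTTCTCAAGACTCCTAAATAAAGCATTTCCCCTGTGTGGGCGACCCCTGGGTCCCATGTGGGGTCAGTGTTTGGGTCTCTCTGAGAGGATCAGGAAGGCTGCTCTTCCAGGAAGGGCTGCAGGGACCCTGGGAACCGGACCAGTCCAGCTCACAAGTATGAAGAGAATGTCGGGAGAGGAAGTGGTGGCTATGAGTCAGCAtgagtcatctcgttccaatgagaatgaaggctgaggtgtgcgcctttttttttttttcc
MIR4435-2HG: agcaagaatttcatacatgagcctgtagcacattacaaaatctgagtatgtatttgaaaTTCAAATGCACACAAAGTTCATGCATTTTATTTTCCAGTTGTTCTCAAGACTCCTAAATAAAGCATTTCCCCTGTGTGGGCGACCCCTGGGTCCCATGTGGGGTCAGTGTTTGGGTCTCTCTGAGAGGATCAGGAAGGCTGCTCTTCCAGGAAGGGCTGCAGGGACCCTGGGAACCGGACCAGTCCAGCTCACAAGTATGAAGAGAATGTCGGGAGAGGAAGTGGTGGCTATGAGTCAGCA

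By comparison, 2 of the 7 lncRNAs, MALAT1 and NEAT1, were lower with OHT in shNT cells. In this comparison 17.3% of the 10272 genes tested were called in either direction (9.05% higher, 8.29% lower), and 53 of the 265 lncRNA rows tested (20%). The median log2 difference of the 7 was 0.10 and that of all genes -0.03. In shCDK12 against shNT 5 of 7 were called, NORAD and KCNQ1OT1 higher and MALAT1, NEAT1 and TUG1 lower, where 62% of 11718 genes were called (29.6% higher, 32.4% lower) and 227 of 391 lncRNA rows (58.1%), with medians of -0.15 and -0.03. In shCDK12_OHT against shNT_OHT 3 of 7 were called, MALAT1 and NEAT1 higher and TUG1 lower, where 45.4% of 11668 genes were called (23.8% higher, 21.6% lower) and 139 of 383 lncRNA rows (36.3%), with medians of -0.01 and 0.05. In shCDK12_OHT against shCDK12 4 of 7 were called, MALAT1, NEAT1 and CYTOR higher and KCNQ1OT1 lower, where 48.9% of 12519 genes were called (27.5% higher, 21.5% lower) and 198 of 461 lncRNA rows (43.0%), with medians of 0.19 and 0.05. The libraries of the compared groups did not overlap for 3 of 7 lncRNAs with OHT in shNT cells (35.9% of genes tested), 5 in shCDK12 against shNT (64.5%), 3 in shCDK12_OHT against shNT_OHT (55.2%) and 5 in shCDK12_OHT against shCDK12 (56.3%). For the last 3 comparisons the share of calls among the 7 was near that of all genes. These comparisons share groups of libraries with each other and are not independent.

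**Figure D3:**
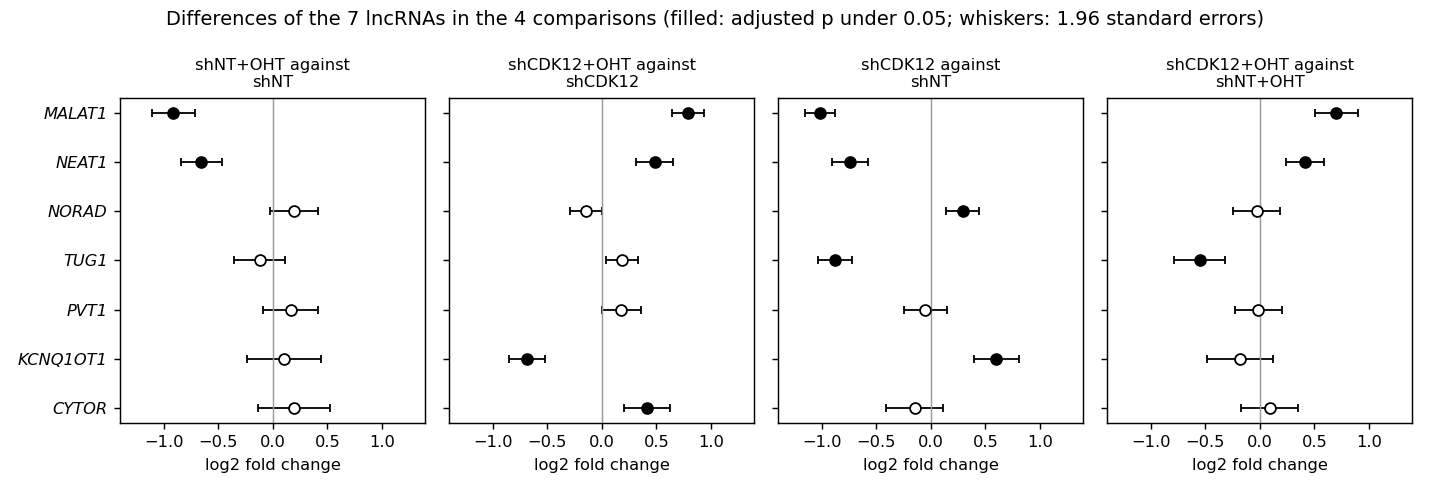
Log2 fold change (x axis) of each of the 7 lncRNAs (y axis) in the 4 comparisons of pairs of groups, with whiskers of 95% intervals. Filled points passed the test (edgeR adjusted p under 0.05), from 2 of 7 with OHT in shNT cells to 5 of 7 in shCDK12 against shNT.

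The difference of the OHT response between the shRNA backgrounds was tested in a fit of all 12 libraries. It passed for 3 of 7 lncRNAs, where 45.2% of 11699 genes passed (25.6% higher, 19.6% lower) and 166 of 382 lncRNA rows (43.5%). MALAT1, which fell with OHT in shNT cells and rose in cells labelled shCDK12, differed by log2 1.70 (SE 0.126, edgeR adjusted p = 3.04e-09) as labelled. NEAT1 differed in the same direction by 1.14 (SE 0.134, edgeR adjusted p = 1.28e-06). KCNQ1OT1 differed by -0.79 (SE 0.185, edgeR adjusted p = 0.00167). NORAD missed the threshold at -0.34 (SE 0.144, edgeR adjusted p = 0.0572), as did TUG1 at 0.31 (SE 0.145, edgeR adjusted p = 0.0911) and CYTOR at 0.22 (SE 0.184, edgeR adjusted p = 0.342). PVT1 differed by 0.02 (95% interval -0.283 to 0.316). MYC counts moved with this difference, by log2 0.96 (edgeR adjusted p = 7.93e-06), as did those of CDK12, by -0.83, and their part in it was not tested. With the labels shCDK12 and shCDK12_OHT exchanged, OHT would change MALAT1 by -0.79 and NEAT1 by -0.48 in cells labelled shCDK12, against -0.91 and -0.66 in shNT cells, and KCNQ1OT1 by 0.69 against 0.10.

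**Figure D4:**
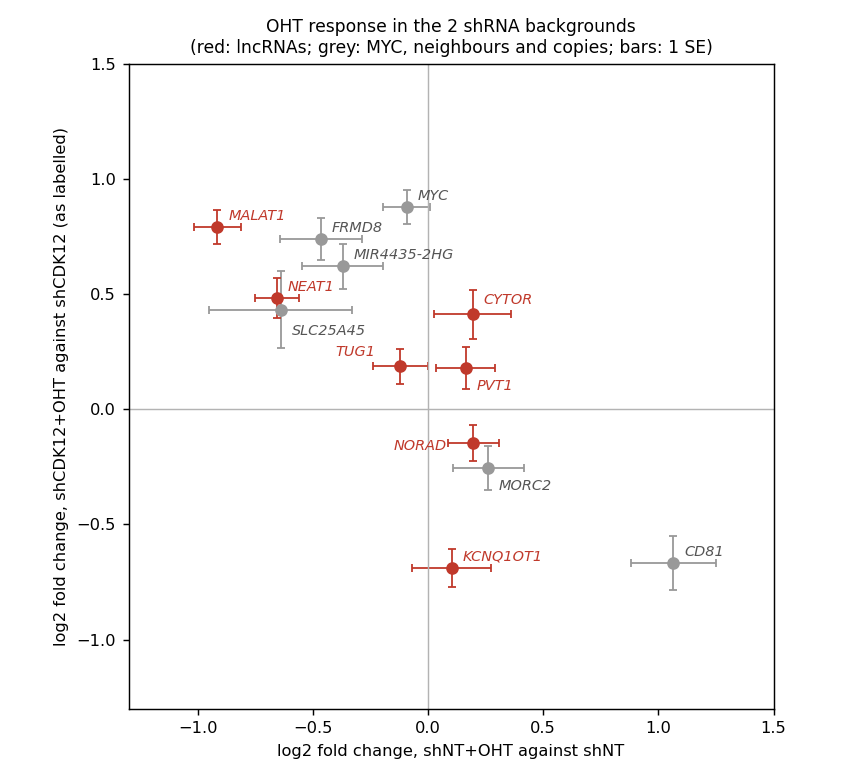
Log2 fold change with OHT in shNT cells (x axis) against that in cells labelled shCDK12 (y axis), for the 7 lncRNAs in red and for MYC, neighbouring genes and the copy of CYTOR in grey, with bars of 1 standard error. MALAT1 at -0.91 and 0.79 and NEAT1 at -0.66 and 0.48 lie at the upper left, and KCNQ1OT1 at 0.10 and -0.69 lies near the bottom.

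Genes next to the 7 lncRNAs, and the copy of CYTOR, were read from the same fits. MYC is among them, and its counts do not separate the endogenous gene from MycER. Of 10 tested, edgeR and DESeq2 each called 0 with OHT in shNT cells in either direction, 2 had an unadjusted p under 0.05, and the median was -0.14. Of all genes edgeR called 17.3% in this comparison. Near MALAT1 and NEAT1, FRMD8 had a log2 difference of -0.46 there (edgeR adjusted p = 0.0866), SLC25A45 -0.64 (0.17) and LTBP3 0.06 (0.899). In shCDK12 against shNT 5 of 10 were lower, where 32.4% of all genes were and 62% were called in either direction: PHF20 near NORAD by -1.13, FRMD8 by -0.92, MYC by -0.90, MORC2-AS1 near TUG1 by -0.75 and MIR4435-2HG by -0.60. With OHT in cells labelled shCDK12, MYC rose by 0.88, LTBP3 by 0.76, FRMD8 by 0.74, MIR4435-2HG by 0.62, PHF20 by 0.53 and SLC25A45 by 0.43, and MORC2 fell by 0.25. These were 6 higher and 1 lower of 10 tested, where 27.5% of all genes were higher and 21.5% lower. In shCDK12_OHT against shNT_OHT EPB41L1 near NORAD was higher by 0.81 and LTBP3 by 0.51 (23.8% of all genes were higher). PHF20 was lower by -0.65 and MORC2 by -0.65 in the same comparison (21.6% of all genes were lower). Without shCDK12_OHT replicate 1 or 3 the number higher here was 0 and without replicate 2 it was 1, without any 1 of them 1 was lower, and 4 were higher with library totals in place of TMM or without shNT_OHT replicate 1. The difference of the OHT response passed for FRMD8 at 1.19 (edgeR adjusted p = 7.79e-05) and SLC25A45 at 1.06 (edgeR adjusted p = 0.0124), with MIR4435-2HG at 0.99, MYC at 0.96 and MORC2 at -0.52. That was 4 higher and 1 lower of 10 tested, where 25.6% of all genes were higher and 19.6% lower.

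New RNA was also read for genes whose proteins belong to the same nuclear bodies as MALAT1 and NEAT1. Of 8 genes of nuclear speckles and MALAT1 processing, 4 rose with OHT in shNT cells (median 0.34, where 9.05% of all genes rose): the splicing regulators RNPS1 by 0.50, SRSF1 by 0.46 and SRRM2 by 0.46, and METTL16, a methyltransferase that binds the MALAT1 triple helix, by 0.43. In shCDK12 against shNT 5 rose (29.6% of all genes did), led by SRSF1 at 0.69, RNPS1 at 0.51 and SRSF2 at 0.47, with SRRM2 at 0.35 and SRRM1 at 0.29. In shCDK12_OHT 7 of 8 were lower than in shNT_OHT and 6 of 8 lower than in shCDK12 (21.6% and 21.5% of all genes were), with SRSF2 at -0.59 and -0.83, SRRM2 at -0.54 and -0.44 and METTL16 at -0.50 in the former. The difference of the OHT response passed for 7 of 8, all with a lower response in shCDK12 cells (median -0.77, against 0.10 for all genes, of which 19.6% passed in that direction). SON, a core speckle protein named after its values were seen, did not pass (-0.09, SE 0.12, edgeR adjusted p = 0.595). Without any 1 of the shCDK12_OHT libraries the 7 lower in shCDK12_OHT against shNT_OHT became 3, as they did with library totals in place of TMM, and 4 with the replicate block. The 4 that rose with OHT in shNT cells became 1 without shNT replicate 1, 0 without shNT replicate 2, shNT replicate 3 or shNT_OHT replicate 3, and 2 with library totals in place of TMM.

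Of 12 genes for paraspeckle proteins, which bind NEAT1, 2 rose with OHT in shNT cells (median 0.06, where 9.05% of all genes rose), led by CPSF6, a cleavage factor subunit, at 0.66. In shCDK12 against shNT 5 rose, where 29.6% of all genes did, among them CPSF6 by 0.90, RBM14 by 0.82, PSPC1 by 0.77 and SFPQ by 0.33, and DAZAP1 fell by 0.74. In shCDK12_OHT 7 were lower than in shCDK12, where 21.5% of all genes were, among them CPSF6 at -0.89 and SFPQ at -0.39. Against shNT_OHT PSPC1 was higher by 1.13 and RBM14 by 0.52, and SMARCA4 was lower by -0.66 and CPSF6 by -0.64. The difference of the OHT response passed for 5 of 12, all lower (19.6% of all genes), with CPSF6 at -1.55. The 2 called with OHT in shNT cells became 0 without any 1 of the shNT libraries and 1 without shNT_OHT replicate 3, and the 5 that rose in shCDK12 against shNT became 8 with upper-quartile scaling.

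Among 7 genes for partners of NORAD, PRPF19, a splicing ubiquitin ligase, rose with OHT in shNT cells by 0.83. It was the only one called (3 were without shNT_OHT replicate 1), where 17.3% of all genes were called in either direction. PRPF19 rose by 0.84 in shCDK12 against shNT too, where 29.6% of all genes rose. RBMX, an RNA-binding protein that NORAD binds, rose there by 0.27, while PUM2 fell by 0.26. In shCDK12_OHT PRPF19 was lower than in shNT_OHT by -0.73. Of the 7 genes, 4 were lower than in shCDK12 (21.5% of all genes were), among them PRPF19 at -0.75, RBMX at -0.50 and TOP1 at -0.22. Of the 8 genes of the KCNQ1OT1 domain 7 were in the table and 4 to 6 were tested. CD81, a tetraspanin, rose by 1.06 and TSSC4 by 0.65 with OHT in shNT cells. CD81 rose by 1.42 in shCDK12 against shNT, PHLDA2 by 0.73 and NAP1L4 by 0.60, where 29.6% of all genes rose. KCNQ1OT1 rose in this comparison too. In shCDK12_OHT against shCDK12 CD81 fell by 0.67 and PHLDA2 by 0.53, where 21.5% of all genes were lower. CDKN1C, a cell cycle inhibitor, was higher in shCDK12_OHT than in shNT_OHT by 2.63 on 0 to 117 counts per library, and OSBPL5 by 0.86. TSSC4 was lower by -0.51, and 45.4% of all genes were called there in either direction. Without any 1 of the shCDK12_OHT libraries none of these 3 calls was left. CDKN1C and OSBPL5 passed the filter on mean counts only through shCDK12_OHT, where they were higher. They stood at 1.97 ± 1.74 and 4.96 ± 1.05 CPM in shNT_OHT, so their differences are a description. With OHT in shNT cells, where 17.3% of all genes were called, the list held 1 call in place of 2 without any 1 library other than shNT_OHT replicate 2.

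Of 15 other known lncRNAs 14 were in the table and 9 to 11 were tested. With OHT in shNT cells DANCR rose by 0.42 and MIAT fell by 0.66, and both calls were lost without any 1 of the shNT libraries, that of DANCR also without shNT_OHT replicate 3. These were 1 higher and 1 lower of 9 tested, where 9.05% of all genes were higher and 8.29% lower. DANCR rose by 0.91 in shCDK12 against shNT, while MIAT fell by 0.96 and FTX by 0.58. That was 1 higher and 2 lower of 9 tested, where 29.6% of all genes were higher and 32.4% lower. In shCDK12_OHT against shNT_OHT UCA1 was higher by 0.80, and FIRRE was lower by -1.55, OIP5-AS1 by -0.88 and MIR17HG, host of the miR-17 cluster, by -0.68. Here 1 was higher and 3 were lower of 10 tested, where 23.8% of all genes were higher and 21.6% lower. In shCDK12_OHT against shCDK12 HOTAIR was higher by 0.90 and UCA1 by 0.44, and MIR17HG was lower by -0.97, FIRRE by -0.76, OIP5-AS1 by -0.67 and DANCR by -0.38. That was 2 higher and 4 lower of 11 tested, where 27.5% of all genes were higher and 21.5% lower. In these comparisons FIRRE and HOTAIR passed the filter on mean counts only through the group in which they were higher. FIRRE held 11.6 ± 2.04 CPM in shNT_OHT, 6.25 ± 1.2 in shCDK12 and 3.87 ± 1.05 in shCDK12_OHT. HOTAIR held 4.39 ± 1 CPM in shCDK12 and 8.16 ± 1.55 in shCDK12_OHT, so the differences of both are a description.

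Genes whose log2 CPM was most like that of a lncRNA over the 12 libraries were found by Pearson's r among 11698 genes, as a description, since the libraries fall into 4 groups. For MALAT1 they were KAT2B (r = 0.99) and SESN3 (0.98), and 106 genes exceeded 0.9. For TUG1 they were DCBLD2 and NR3C1, with 408 genes over 0.9, and for NEAT1 LEPROT (0.96) and RAB3GAP1 (0.95). BTBD1 and ESF1 were most like NORAD (0.95 and 0.94) and WDR90 and FAN1 most like KCNQ1OT1 (0.92 and 0.91). PVT1 and CYTOR had 0 genes over 0.9, and CYTOR was the gene most like PVT1 (0.87).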

How the data were processed

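The libraries were TruSeq Stranded Total RNA Gold libraries of EU-labelled RNA, 3 per group, aligned to hg19, with STAR 2.7.5c and featureCounts 1.4.5-p1 named in the submitters' processing notes. The authors deposited raw counts per Entrez gene for 23434 genes, without normalization, and 0 sample columns were left unused. The table has no mouse rows, so scaling by the added mouse RNA was not possible and the overall output of new RNA is not visible in these values. Symbols came from RefSeq GRCh38.p14 by identifier for 23284 genes. SLC22A18, TALAM1, CASC11 and CCAT1 were not analysed here, and a few genes counted in the lists or markers are not reported here by name.

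Counts were tested with edgeR 4.0.16 in R 4.3.3 (TMM factors from the whole table, quasi-likelihood test, Benjamini-Hochberg adjustment over all genes tested, called at an adjusted p under 0.05), for genes whose normalized counts averaged above 32, in fits of the 6 libraries compared or, for the difference of the OHT response, of all 12. All 7 lncRNAs passed the filter in each fit. Standard errors were derived from the F statistic, and 95% intervals assume a normal error. Total counts ranged 8.35-fold, from 1251695 to 10447836, and counting errors cover counting only. The members, the lists and the tests were chosen with earlier results of these data known. From each list up to 3 genes per comparison with the largest difference among those called are named, all neighbours may be named, and others were chosen after their values were seen. On simulated counts with 200 genes changed 2-fold, the fit of shNT_OHT against shNT recovered 141 with 6 false calls among 10124 genes, that of shCDK12 against shNT 171 with 6 among 11585, that of shCDK12_OHT against shNT_OHT 155 with 9 among 11524, that of shCDK12_OHT against shCDK12 190 with 14 among 12407 and the interaction fit 107 with 5 among 11599. Alternatives were DESeq2 1.42.0, upper-quartile scaling, library totals, other filters, replicate number blocks, one fit of all libraries, thinning to 1251695 counts, leaving out each library in turn and, chosen after seeing the data, TMM factors from the tested genes only.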

Additional observations from a re-analysis of the deposited data

Results flagged for a closer look

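For 3 of the 7 lncRNAs the change with OHT was not the same in shNT and shCDK12 cells by the interaction test in edgeR. This test passed for 45.2% of the 11699 genes tested and 43.5% of the lncRNA rows, so the share among the 7 was near that of all genes. The log2 difference, shCDK12 minus shNT background, was 1.70 for MALAT1 (adjusted p = 3.04e-09), with every shNT_OHT library below every shNT library and every library labelled shCDK12_OHT above every one labelled shCDK12. For NEAT1 it was 1.14 (adjusted p = 1.28e-06), with the same separation of libraries. For KCNQ1OT1 it was -0.794 (adjusted p = 0.00167), where the shNT and shNT_OHT libraries overlapped. Libraries did not overlap for 35.9% of genes tested in shNT_OHT against shNT and 56.3% in shCDK12_OHT against shCDK12, in either direction. CDK12 was at 289 ± 10.9 CPM in the libraries labelled shCDK12 and at 304 ± 17.4 CPM in shNT (n = 3 each), so these differences rest on libraries in which the silenced gene was not lower, and the part of this in them was not tested. Whether the labels shCDK12 and shCDK12_OHT were exchanged was not tested either. With them exchanged the change with OHT in the cells labelled shCDK12 would be -0.791 for MALAT1, -0.484 for NEAT1 and 0.688 for KCNQ1OT1, and would differ from that in shNT cells by 0.123, 0.171 and 0.586, values to which no test was applied.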

How the results depend on the processing

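Of 35 values (7 lncRNAs in 5 tests), 17 were called. Of these, 16 kept their direction and call under every alternative run, and CYTOR in shCDK12_OHT against shCDK12 was lost by thinning (log2 0.14, edgeR adjusted p = 0.563). All 17 held without each library. Of the 18 not called, 6 passed under some alternative, 7 changed sign and 5 did neither, and the causes were not tested. The number of lncRNAs called was 2 to 3 with OHT in shNT cells (3 without shNT_OHT replicate 1), 5 in shCDK12 against shNT, 3 in shCDK12_OHT against shNT_OHT, 3 to 5 in shCDK12_OHT against shCDK12 and 3 to 4 in the interaction. NORAD passed in the interaction with DESeq2 (adjusted p = 0.0101), upper-quartile scaling (0.00772), no filter (0.0379), thinning (0.0196), TMM from the tested genes (0.0167) and without shCDK12 replicate 1 (0.0368) or shNT_OHT replicate 1 (0.00255). The smallest count was that of CYTOR in shNT_OHT replicate 2, in the shallowest group, with a counting error of 11.3%.

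The correlation of deviations between libraries of the same replicate number was -0.094 to 0.3 and exceeded 0.1 in 2 of 18 pairs. Between libraries of different numbers it was -0.33 to 0.1 and exceeded 0.1 in 1 of 36 pairs. With 3 libraries a group these values cannot show whether the numbers mark pairs. With the replicate number as a block, 2, 5, 3, 4 and 4 lncRNAs were called in the order above, the last with NORAD (log2 -0.33, edgeR adjusted p = 0.0406), and 1734, 7437, 4846, 6236 and 5385 of all genes, against 1782, 7265, 5298, 6128 and 5289 without it.

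All genes called by edgeR moved by over 1.5 times in a single fit of 12 libraries for OHT in shNT cells (3256), and by thinning, in which fewer genes were tested, to 4477 in shCDK12 against shNT, 3142 in shCDK12_OHT against shNT_OHT, 3227 in shCDK12_OHT against shCDK12 and 3202 in the interaction. Leaving out 1 library gave 670 to 2523 with OHT in shNT cells and 3520 to 6238 in shCDK12_OHT against shNT_OHT. Library totals in place of TMM lowered the share of calls that were higher with OHT in shNT cells from 52.2 to 41.4%, while DESeq2 gave 61.5%, upper-quartile scaling 59.5% and thinning 64%. Upper-quartile scaling moved the median of all genes in the interaction by -0.12.

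Signs that turned were all of values not called. With OHT in shNT cells KCNQ1OT1 became -0.0079 without shNT replicate 2 and -0.015 without shNT_OHT replicate 1 (up to 0.29 without others). In shCDK12 against shNT PVT1 became 0.039 with upper-quartile scaling and 0.024 without shCDK12 replicate 1 (down to -0.13 without others). In shCDK12_OHT against shNT_OHT NORAD became 0.039 with library totals and 0.032 without shNT_OHT replicate 2 (down to -0.16 without others), PVT1 0.057 with library totals, 0.00015 without shCDK12_OHT replicate 1 and 0.0028 without replicate 3 (down to -0.054 without others), and CYTOR -0.14 thinned. In the interaction CYTOR became -0.051 thinned, and PVT1 -0.050 with DESeq2, -0.10 with upper-quartile scaling, -0.00079 thinned, -0.049 with TMM from the tested genes, and -0.022, -0.062, -0.0068 and -0.022 without shNT replicate 2, shCDK12 replicate 1, shNT_OHT replicate 1 and shCDK12_OHT replicate 2 (up to 0.10 without others).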
